A study of Mus musculus with 4 samples.

Results

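The genes encoding potassium channels, their auxiliary subunits and the HCN channels were examined in GFP+ cells of the E11.5 mouse neural tube with and without PRDM13. Members were the genes of the deposited table whose symbol is Kcn followed by further letters and a number, or Hcn followed by a number, which gave 96 of 24421 genes in 21 subfamilies. The *Prdm13GFP* allele is a GFP knockin that disrupts *Prdm13*. The controls were heterozygous *Prdm13GFP/+* embryos and so also lacked 1 intact copy, and the mutants were homozygous *Prdm13GFP/GFP* embryos. GFP+ cells were sorted from dissociated neural tubes, and the RNA of 7 *Prdm13GFP/+* and of 9 *Prdm13GFP/GFP* embryos was combined into 1 pool per genotype, from which 2 libraries each were sequenced. The libraries of a genotype are thus technical replicates, and every test below measures their spread and not the spread between embryos.

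Potassium channels set the resting potential of neurons and end their action potentials. Voltage-gated channels are built from alpha subunits and open on depolarization. Calcium- and sodium-activated channels shape the afterhyperpolarization, inward rectifiers and two-pore (K2P) channels carry resting potassium current, and HCN channels are opened by hyperpolarization and pass both sodium and potassium. Auxiliary subunits such as the Kv beta proteins, the KChIP proteins and the BK beta subunits change the gating and surface number of the pore-forming subunits. In embryonic neural tube, channels of these families appear as progenitors become neurons and gain excitability.

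Levels are given as RPKM, the reads on a gene per kilobase of exon, scaled to the size of the library, as the authors deposited them, and these allow genes of different length to be compared. Whole reads were recovered from the values as the smallest whole numbers that fit them, so a gene can have more reads than given, and they summed to between 11520348 and 18324776 per library. *Prdm13* itself was at 114 and 127 RPKM in the *Prdm13GFP/+* libraries and at 309.5 and 324 RPKM in the *Prdm13GFP/GFP* libraries. Reads of the disrupted allele still count toward the gene. The 13 pan-neuronal markers and the 14 progenitor markers were all above the filter described next. All 12 markers of the *Prdm13* lineage were also tested, with 5 called higher and 7 lower in *Prdm13GFP/GFP*, where 6.33% of all genes tested were called. All but *Lbx1* are among the genes that the paper lists as changed in these same libraries, so their calls are no independent result. Fewer cells of a type and less RNA per cell cannot be told apart in such bulk libraries, here and in all results that follow.

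The test was limma on log2(RPKM + 0.1), over genes whose mean reached 1 RPKM in 1 genotype or both. A gene was called when it changed by 1.5-fold or more with an adjusted p under 0.05. Because of the added 0.1, the change of a low gene comes out smaller than it is. Of the 96 members, 27 passed this filter and 69 did not. All 96 could be placed by their reads: 4 (*Kcne3*, *Kcnk16*, *Kcnmb3* and *Kcnv2*) were listed at 0 in every library, and 22, these included, had no more than 3 reads in any library, the limit of detection used here, which covers counting error only. A further 19 of the untested members reached 20 reads in a library and were compared by a fit on reads that was added after seeing the data. The 27 tested members came from 13 subfamilies, and *Kcnb*, *Kcnf*, *Kcng*, *Kcnv*, *Kcns*, *Kcne*, *Kcnt* and *Kcnu* had none.

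The summed level of the 96 members was 134 and 142 RPKM in *Prdm13GFP/+* and 137 and 145 RPKM in *Prdm13GFP/GFP*. The 4 highest genes in each library held 42.8 to 44.9% of the sum. The summed levels overlapped between genotypes.

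**Figure D1:**
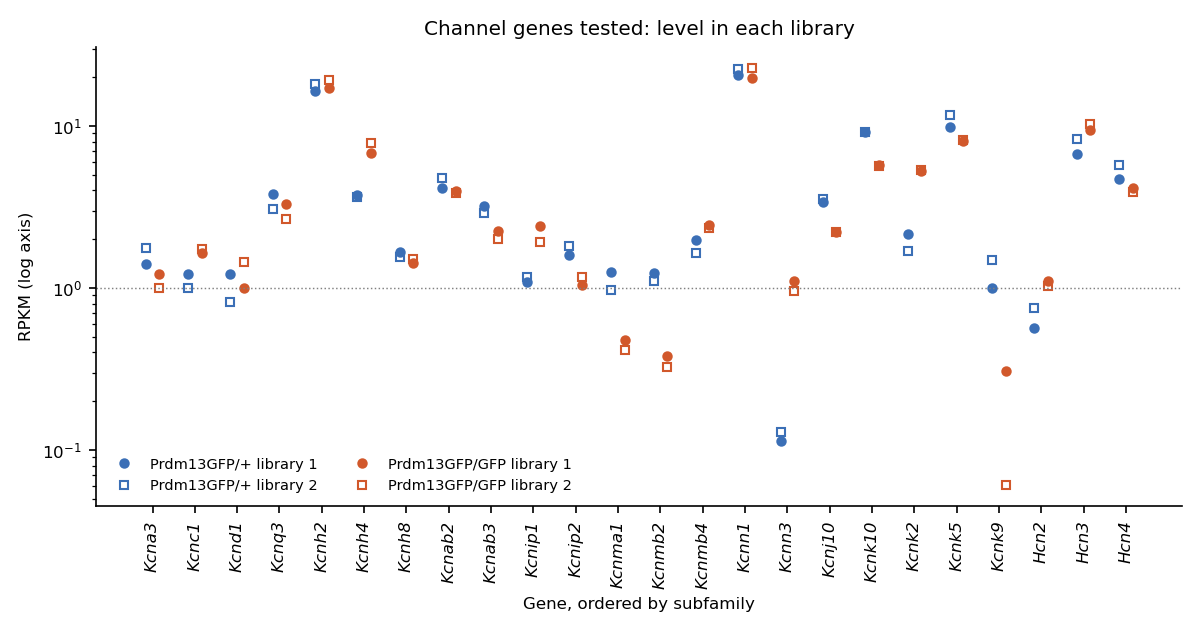
RPKM on a log axis for 24 of the 27 channel genes tested, in each of the 4 libraries, ordered by subfamily. Blue symbols are Prdm13GFP/+ libraries and red symbols Prdm13GFP/GFP libraries, with filled circles for library 1 and open squares for library 2. The dotted line is the filter of 1 RPKM. Kcnn1 and Kcnh2 were at the top in all libraries with overlapping genotypes, while Kcnn3 and Kcnk2 lay higher and Kcnk9, Kcnmb2 and Kcnma1 lower in Prdm13GFP/GFP.

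Of the 27 members tested, 4 were called higher (*Kcnk2*, *Kcnh4*, *Kcnip1* and *Kcnn3*) and 5 lower (*Kcnk10*, *Kcnj10*, *Kcnma1*, *Kcnmb2* and *Kcnk9*) in *Prdm13GFP/GFP*. That is 33.3% of them, and 6.33% of all 12046 genes tested were called (3.65% higher, 2.67% lower). Of the 9 called members, 5 passed the filter in both genotypes and 4 only in the genotype where they were high (*Kcnn3* in *Prdm13GFP/GFP*, and *Kcnma1*, *Kcnmb2* and *Kcnk9* in *Prdm13GFP/+*). A gene that passes in 1 genotype only had to differ, so these 4 calls raise the 33.3% and are no separate support for it. Of the 22 members that passed in both genotypes 5 were called, and the share of all genes under that rule was not computed. The count also says nothing about the 69 members under the filter. The median log2 fold change of the 27 members was -0.085 and that of all genes tested 0.010. The median absolute log2 fold change was 0.47 among the members and 0.13 among all genes. At 21 of the 27 members (77.8%) the libraries of the genotypes did not overlap, and 62.1% of all genes tested did not overlap. The 0.47 and the 77.8% also include the members that passed in 1 genotype only (3 in *Prdm13GFP/+* and 2 in *Prdm13GFP/GFP*). All genes were not matched to the members by level, so neither figure is separate support. Calls went in both directions, while the sums over the family overlapped. When limma was run with no filter on RPKM, *Kcnk10* kept its call (adjusted p = 0.0476) and the others lost theirs, with an adjusted p of 0.0778 for *Kcnh4*, 0.0910 for *Kcnk2* and 0.0619 for *Kcnn3*.

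The called members with more than 100 reads in every library were *Kcnk2* and *Kcnh4*, which rose, and *Kcnk10* and *Kcnj10*, which fell. Their promoter windows are shown because these are the members whose change rests on the most reads. Each window holds 250 bases before and 50 after a transcription start, from RefSeq on GRCm38.p6, 5′ to 3′ on the gene's strand. For genes with several starts 1 window is shown. The windows of *Kcnk2* and *Kcnh4* lie inside the gene spans given below, and so not at the outer end of those spans. Capitals mark E-boxes (CANNTG, a pattern that matches the same positions on both strands), the element bound by neural bHLH factors.
Kcnk2, chr1:189402224-189402523, minus strand: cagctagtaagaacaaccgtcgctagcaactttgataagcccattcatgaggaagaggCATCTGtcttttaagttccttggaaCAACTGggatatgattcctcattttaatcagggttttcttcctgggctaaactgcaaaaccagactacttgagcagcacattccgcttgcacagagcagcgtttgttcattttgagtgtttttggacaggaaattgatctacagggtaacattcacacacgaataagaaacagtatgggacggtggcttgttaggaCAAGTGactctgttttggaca
Kcnh4, chr11:100759729-100760028, minus strand: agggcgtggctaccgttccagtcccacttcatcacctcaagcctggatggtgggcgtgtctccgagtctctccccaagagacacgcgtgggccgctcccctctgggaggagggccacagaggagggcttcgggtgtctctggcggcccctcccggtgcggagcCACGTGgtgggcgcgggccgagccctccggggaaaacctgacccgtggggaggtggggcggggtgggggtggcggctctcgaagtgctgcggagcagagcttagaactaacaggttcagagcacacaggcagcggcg
Kcnk10, chr12:98578164-98578463, minus strand: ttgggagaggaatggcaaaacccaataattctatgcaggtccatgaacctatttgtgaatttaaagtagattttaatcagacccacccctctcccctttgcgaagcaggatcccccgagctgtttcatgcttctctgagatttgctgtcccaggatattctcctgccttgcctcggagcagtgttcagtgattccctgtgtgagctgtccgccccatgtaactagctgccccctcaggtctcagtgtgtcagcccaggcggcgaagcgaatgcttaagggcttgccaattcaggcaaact
Kcnj10, chr1:172340960-172341259, plus strand: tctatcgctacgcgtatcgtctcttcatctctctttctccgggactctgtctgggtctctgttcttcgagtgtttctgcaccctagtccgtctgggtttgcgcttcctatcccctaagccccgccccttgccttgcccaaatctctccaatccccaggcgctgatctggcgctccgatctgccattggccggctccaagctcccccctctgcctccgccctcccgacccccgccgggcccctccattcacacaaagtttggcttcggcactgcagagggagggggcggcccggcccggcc
The window of *Kcnk2* held 3 E-boxes and that of *Kcnh4* 1, while those of *Kcnk10* and *Kcnj10* had no such letters. Of the other called members with a window, *Kcnip1* (higher) had 2. *Kcnn3* (higher), *Kcnma1* (lower) and *Kcnmb2* (lower) had none, so E-boxes did not separate risen from fallen genes. *Kcnk2* had 4 windows, *Kcnip1* 3 and *Kcnk10* 2, and these counts are for 1 window each. An E-box is common at this length: 72.3% of 32851 windows of the table held one, as did 68 of the 94 windows of channel genes (72.3%). The form CAGCTG, which is part of CANNTG, was in 16.3% of all windows and in 23 of the 94, or 24.5%. Windows were found for 69 of the 96 members. A match is only a match of letters, and none of these windows was tested for binding.

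Two-pore channels carry background potassium current, and 4 of their 14 genes were tested. *Kcnk2* and *Kcnk10* encode the closely related mechano- and lipid-sensitive channels TREK-1 and TREK-2. *Kcnk2* (gene ID 16526, chromosome 1 from 189207930 to 189402782 of GRCm38) was at 2.14 and 1.68 RPKM in *Prdm13GFP/+* and at 5.24 and 5.37 RPKM in *Prdm13GFP/GFP*, from 102, 127, 351 and 303 reads. Both mutant libraries lay far above both controls. The paper already lists *Kcnk2* as higher in the mutants from these same libraries, so its call is no independent result. The change was 1.44 on the log2 scale (adjusted p = 0.000995; SE, the standard error, 0.134), and it stayed between 1.27 and 1.60 and called with each library left out in turn.

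*Kcnk10* (gene ID 72258, chromosome 12 from 98429432 to 98578213) went the other way, from 9.21 and 9.11 RPKM in *Prdm13GFP/+* to 5.71 and 5.69 RPKM in *Prdm13GFP/GFP*. The libraries of a genotype were almost equal. Its change of -0.68 on the log2 scale (adjusted p = 0.00120, SE 0.0654) was called under every alternative tried. The summed level of *Kcnk2* and *Kcnk10* was 11.3 and 10.8 RPKM in *Prdm13GFP/+* and 10.9 and 11.1 RPKM in *Prdm13GFP/GFP*. *Kcnk2* made up 18.8 and 15.6% of it in the controls and 47.9 and 48.6% in the mutants, so the make-up of the pair shifted within sums that overlapped. The pair was chosen after its values were seen. The TRAAK gene *Kcnk4*, of the same group, had at most 2 reads in any library.

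*Kcnk5*, the gene of the alkaline-activated channel TASK-2, was the highest two-pore gene. It was at 9.81 and 11.6 RPKM in *Prdm13GFP/+* and at 8.06 and 8.13 RPKM in *Prdm13GFP/GFP*. The adjusted p was 0.0268 and the log2 fold change -0.40 (standard error 0.0901), short of 1.5-fold. *Kcnk9*, which encodes the acid-sensitive channel TASK-3, was low, at 1.00 and 1.49 RPKM in *Prdm13GFP/+* and at 0.305 and 0.0605 RPKM in *Prdm13GFP/GFP*. These values stand for 14, 33, 6 and 1 reads, and the last library is under the limit of detection. With limma it fell by 2.37 on the log2 scale (adjusted p = 0.0292, SE 0.555). The call was lost without either control library (-2.64, adjusted p = 0.0631 without the first, and -2.11, adjusted p = 0.107 without the second) and without the second mutant library (-1.71, adjusted p = 0.0651), and also without a trend in eBayes (adjusted p = 0.0539). Of the other 10 two-pore genes, none reached 20 reads in a library.

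Of the voltage-gated alpha subunits, 10 of 30 genes were tested and 1 was called, *Kcnh4*, which encodes an ELK channel of the ether-a-go-go family. *Kcnh4* (gene ID 380728, chromosome 11 from 100740378 to 100760115) was at 3.75 and 3.65 RPKM in *Prdm13GFP/+* and at 6.84 and 7.79 RPKM in *Prdm13GFP/GFP*, from 164, 253, 421 and 403 reads. The ranges were far apart. The change, 0.96 on the log2 scale (adjusted p = 0.00107, SE 0.0910), remained called with each library left out, between 0.87 and 1.05.

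Of the other *Kcnh* genes, 2 were tested and neither was called. *Kcnh2*, the gene of the ERG channel of cardiac repolarization, had 16.4 and 18.0 RPKM in *Prdm13GFP/+* and 17.2 and 19.2 RPKM in *Prdm13GFP/GFP*. The ranges overlapped, and the 95% interval of its log2 fold change ran from -0.10 to 0.27 around 0.082 (adjusted p = 0.495). *Kcnh8*, which encodes another ELK channel, had a log2 difference of -0.12 (adjusted p = 0.640).

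*Kcnh7*, a gene of another ERG channel, was under the filter, at 0.159 and 0.172 RPKM in *Prdm13GFP/+* and at 0.826 and 0.751 RPKM in *Prdm13GFP/GFP*. It had 7 and 12 reads in the controls and 51 and 39 in the mutants, and the genotypes did not overlap. The exon length solved for these reads was 3798 bases and the annotated one 15226, so the true reads may be a multiple of them. The gene shares 696 annotated exon bases with *Gca* on the opposite strand. With limma voom on the recovered reads of genes with at least 20 reads in a library, a fit added after seeing the data, its log2 fold change was 2.18 (adjusted p = 1.08e-05, SE 0.325). *Kcnh7*, which was chosen after its values were seen, is also among the genes that the study assigned to a PRDM13 ChIP-seq site, as is *Kcnj15*. *Kcnj15*, an inward rectifier gene, had at most 2 reads in any library.

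Channels of the *Kcnq* genes carry the M-current that limits repetitive firing. *Kcnq3* was at 3.78 and 3.07 RPKM in *Prdm13GFP/+* and at 3.31 and 2.67 RPKM in *Prdm13GFP/GFP*, with overlapping genotypes (log2 difference -0.19, adjusted p = 0.418). *Kcnq1* and *Kcnq5* were not tested, with at most 13 reads in a library.

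Among the remaining Kv genes, *Kcnc1*, which encodes a fast delayed rectifier subunit, was at 1.22 and 0.998 RPKM in *Prdm13GFP/+* and at 1.65 and 1.74 RPKM in *Prdm13GFP/GFP*. The genotypes did not overlap. A log2 change of 0.58 (adjusted p = 0.0799, SE 0.189) was not called, and was called higher by voom on recovered reads (adjusted p = 0.000139 with 20 reads in a library). *Kcnc4*, an A-type member of the subfamily chosen after its values were seen, had 8 and 19 reads in *Prdm13GFP/+* and 0 and 2 reads in *Prdm13GFP/GFP*, too few for either fit.

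The A-type subunit gene *Kcnd1* had 1.22 and 0.815 RPKM in *Prdm13GFP/+* and 1.000 and 1.44 RPKM in *Prdm13GFP/GFP* (adjusted p = 0.594), with uneven libraries in both genotypes. The Kv1 gene *Kcna3* was at 1.41 and 1.75 against 1.22 and 1.00 RPKM, or -0.47 on the log2 scale (95% interval -0.97 to 0.031, adjusted p = 0.169). In the added voom fit, 2 other Kv1 genes under the filter were called, in opposite directions: *Kcna6* higher, from 0.503 and 0.308 to 0.801 and 1.04 RPKM, and *Kcna2* lower, from 0.507 and 0.547 to 0.398 and 0.290 RPKM. The summed *Kcna* level was 2.72 and 3.03 RPKM in *Prdm13GFP/+* and 2.98 and 2.75 RPKM in *Prdm13GFP/GFP*. None of the 10 modifier subunit genes (*Kcnf*, *Kcng*, *Kcnv* and *Kcns*), whose products act only together with other alpha subunits, was tested, and *Kcnf1* was the highest of them, with 41 to 76 reads a library.

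**Figure D2:**
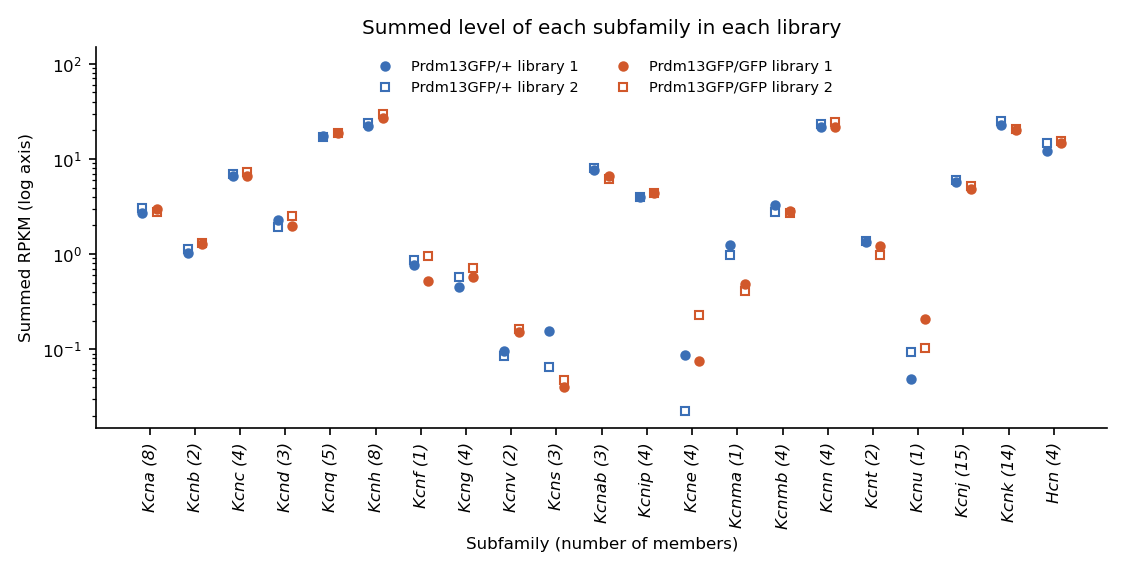
Summed RPKM of the members of each of the 21 subfamilies, on a log axis, in each of the 4 libraries, with the number of members in brackets. Blue symbols are Prdm13GFP/+ libraries and red symbols Prdm13GFP/GFP libraries, with filled circles for library 1 and open squares for library 2. Kcnma fell from 1.25 and 0.975 to 0.479 and 0.411 RPKM and Kcnh went from 22.4 and 23.9 to 26.7 and 30.0 RPKM, while Kcnn overlapped. The sums under 0.3 RPKM (Kcnv, Kcns, Kcne and Kcnu) rest on few reads.

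Of the calcium-activated genes, *Kcnn3* was called higher and *Kcnma1* lower. Each passed the filter only in the genotype where it was high, so the sizes of these changes are not ranked against those of other subfamilies. *Kcnn1*, *Kcnn2* and *Kcnn3* encode the small-conductance SK channels of the afterhyperpolarization. *Kcnn1* was the highest member of all, at 20.6 and 22.3 RPKM in *Prdm13GFP/+* and at 19.8 and 22.8 RPKM in *Prdm13GFP/GFP*. The ranges overlapped, and the 95% interval of its log2 fold change ran from -0.21 to 0.18 (adjusted p = 0.924).

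*Kcnn3* (gene ID 140493, chromosome 3 from 89520164 to 89672494) was at 0.113 and 0.129 RPKM in *Prdm13GFP/+* and at 1.10 and 0.960 RPKM in *Prdm13GFP/GFP*, from 10, 18, 136 and 100 reads. The mean was 8.49-fold higher in the mutants, with no overlap. The fitted log2 change was 2.35 (adjusted p = 0.0151, SE 0.450), and between 2.30 and 2.44 with a library left out. After quantile normalization the call was lost (2.36, adjusted p = 0.0583). Without the first *Prdm13GFP/GFP* library the gene fell under the filter and was not tested. *Kcnn3* remained a small part of the SK and IK genes, 0.530 and 0.550% of their summed RPKM in the controls and 5.06 and 3.95% in the mutants. *Kcnn2* had 17, 34, 25 and 16 reads and was not tested.

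*Kcnma1* encodes the pore of the BK channel, which is opened jointly by calcium and voltage, and the *Kcnmb* genes its beta subunits. *Kcnma1* (gene ID 16531, chromosome 14 from 23292288 to 24005110) was at 1.25 and 0.975 RPKM in *Prdm13GFP/+* and at 0.479 and 0.411 RPKM in *Prdm13GFP/GFP*, from 113, 140, 61 and 44 reads. The BK pore gene thus fell by 1.15 on the log2 scale (adjusted p = 0.0437, SE 0.304). The call was lost without the first mutant library (-1.24, adjusted p = 0.0836) and without the second (-1.06, adjusted p = 0.110). Without the first control library *Kcnma1* was under the filter, and with a pseudocount of 1 its change was under 1.5-fold (-0.54). The gene shares 1016 of its annotated exon bases with *4930519K11Rik* on the opposite strand, and whether strand was used in counting is not given in the sources used here.

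*Kcnmb2*, the gene of an inactivating BK beta subunit, was also called lower, and like *Kcnma1* it passed the filter only in *Prdm13GFP/+*. It was at 1.24 and 1.10 RPKM in *Prdm13GFP/+* and at 0.379 and 0.326 RPKM in *Prdm13GFP/GFP*, from 42, 59, 18 and 13 reads. Here the log2 change was -1.49 (adjusted p = 0.0199, SE 0.310), and the call was lost without the first control library (-1.41, adjusted p = 0.0566) and without the second mutant library (-1.41, adjusted p = 0.0560). *Kcnmb4*, the neuronal beta subunit gene, was at 1.98 and 1.63 against 2.45 and 2.33 RPKM and was not called (log2 fold change 0.39, adjusted p = 0.119). It shares exon bases with the antisense genes *Kcnmb4os1* and *Kcnmb4os2*. *Kcnmb1* and *Kcnmb3* had at most 5 reads in a library. The sodium-activated channel genes *Kcnt1* and *Kcnt2* were under the filter, and neither was called in the added voom fit.

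Of the 15 inward rectifier genes, *Kcnj10* was the only one tested. It encodes a channel known from glia and their precursors, where it clears potassium. *Kcnj10* (gene ID 16513, chromosome 1 from 172341210 to 172374085) was at 3.37 and 3.51 RPKM in *Prdm13GFP/+* and at 2.21 and 2.20 RPKM in *Prdm13GFP/GFP*. The libraries of a genotype agree closely and the genotypes did not overlap. The fall was -0.62 on the log2 scale (adjusted p = 0.0107, SE 0.108), close to the 1.5-fold threshold. With a library left out the fold change stayed between -0.65 and -0.59, and with a pseudocount of 1 it was -0.47, under 1.5-fold. The adjusted p rose to 0.0563 without the first control library, 0.0710 without the second, 0.0608 without the first mutant library and 0.0772 without the second. Of the 14 progenitor markers, 2 were called lower, *Ccnd1* (-0.94 on the log2 scale) and *Sox1* (-0.68), and none higher, where 2.67% of all genes tested were called lower. *Mki67* (-0.56), *Sox2* (-0.48), *Top2a* (-0.45) and *Hes1* (-0.29) had an adjusted p under 0.05 and a fold under 1.5. On the other side, *Sox3* was at 0.54, *Hes5* at 0.42, *Notch1* at 0.37 and *Pax6* at 0.26, also with an adjusted p under 0.05 and under 1.5-fold. The summed level of the list, of which *Vim* and *Fabp7* made up the most, was 2836 and 2853 RPKM in *Prdm13GFP/+* and 2712 and 2805 RPKM in *Prdm13GFP/GFP*. Their part in the change of *Kcnj10* was not tested.

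The other *Kcnj* genes were low. The GIRK genes encode channels opened by G protein-coupled receptors, and among them *Kcnj3* had 19 and 32 reads in *Prdm13GFP/+* and 9 and 11 in *Prdm13GFP/GFP*. It was called lower in the added voom fit (adjusted p = 0.00528), and *Kcnj9* was not called (adjusted p = 0.767). *Kcnj5* and *Kcnj6* had at most 3 reads in any library. *Kcnj11*, the pore gene of the ATP-sensitive channel, was at 0.771 and 0.722 RPKM in *Prdm13GFP/+* and at 1.02 and 0.967 RPKM in *Prdm13GFP/GFP*, just under the filter. The vascular ATP-sensitive gene *Kcnj8*, known from pericytes, had at most 2 reads in any library.

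None of the 3 HCN genes tested was called by limma, with 1 higher and 1 lower at an unadjusted p under 0.05, and the added voom fit called 1 higher, *Hcn2* (adjusted p = 0.0424). *Hcn3* led them, with 6.73 and 8.30 RPKM in *Prdm13GFP/+* and 9.37 and 10.3 RPKM in *Prdm13GFP/GFP*, or 0.39 higher on the log2 scale (adjusted p = 0.0508, SE 0.110). *Hcn4* was at 4.71 and 5.75 RPKM in *Prdm13GFP/+* and at 4.11 and 3.93 RPKM in *Prdm13GFP/GFP* (log2 fold change -0.36, adjusted p = 0.0688, SE 0.113). Neither pair of ranges overlapped, and the values of the pair lay on opposite sides of the controls. *Hcn3* shares 711 annotated exon bases with *Pklr* on the opposite strand. *Hcn2* was at 0.568 and 0.752 against 1.10 and 1.03 RPKM (log2 fold change 0.62, adjusted p = 0.160). The summed HCN level was 12.1 and 14.8 RPKM in the controls and 14.7 and 15.3 RPKM in the mutants.

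**Figure D3:**
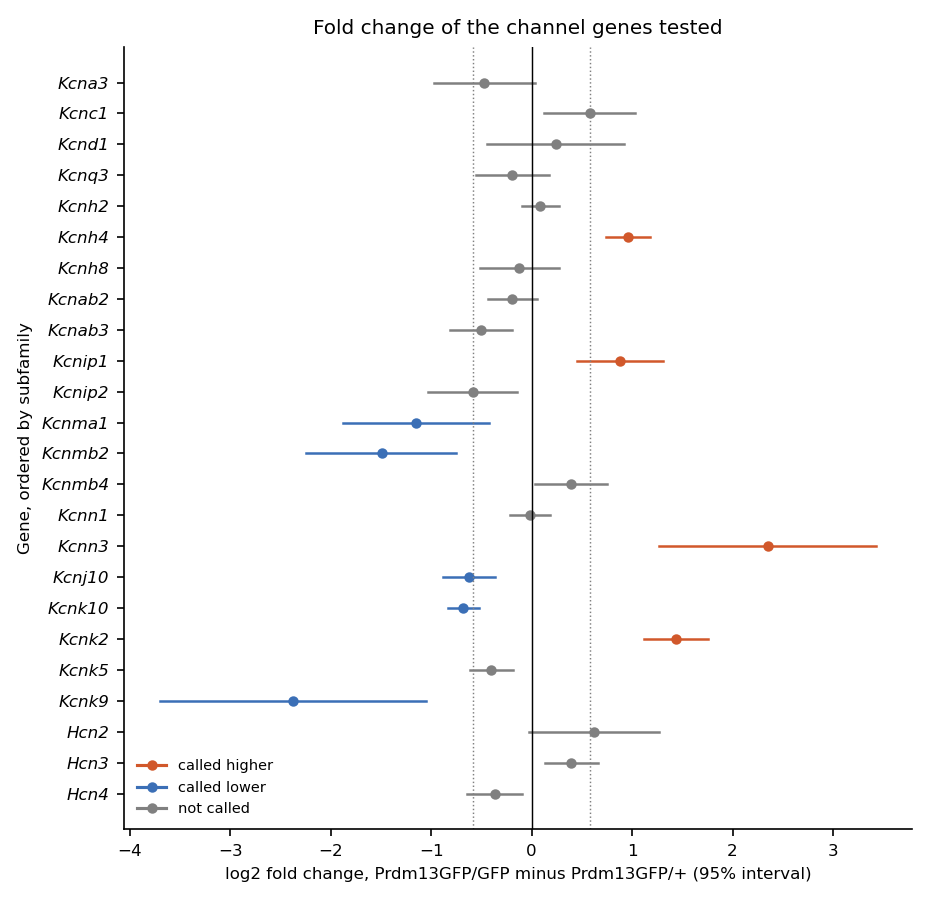
Log2 fold change of Prdm13GFP/GFP relative to Prdm13GFP/+ for 24 of the 27 channel genes tested, on log2(RPKM + 0.1), with 95% intervals from limma as bars. Red genes were called higher, blue genes lower and grey genes not called, and dotted lines mark a fold of 1.5. Kcnk2 at 1.44 and Kcnk10 at -0.68 stand on opposite sides with short intervals, while Kcnk9 at -2.37 and Kcnn3 at 2.35 have wide ones.

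Of the auxiliary subunit genes of Kv channels, *Kcnip1* was called by limma. *Kcnip1*, which encodes a calcium-binding KChIP protein of Kv4 channels, was at 1.09 and 1.16 RPKM in *Prdm13GFP/+* and at 2.40 and 1.93 RPKM in *Prdm13GFP/GFP*, from 37, 62, 114 and 77 reads. The rise was 0.88 on the log2 scale (adjusted p = 0.0187, SE 0.179). It lost the call without any single library, with an adjusted p of 0.0722 and 0.0640 without the first and the second control library (0.84 and 0.91 on the log2 scale), and of 0.105 and 0.0569 without the first and the second mutant library (0.73 and 1.03). With a pseudocount of 1 it was under 1.5-fold (0.57). *Kcnip1* (gene ID 70357) lies on chromosome 11 from 33629339 to 33993348, and *Kcnmb1*, which shares none of its exon bases, lies within it on the other strand.

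*Kcnip2*, another KChIP gene, was at 1.60 and 1.82 RPKM in *Prdm13GFP/+* and at 1.04 and 1.17 RPKM in *Prdm13GFP/GFP*. Its log2 fold change of -0.58 (adjusted p = 0.0730) was not called, and was called by voom on recovered reads (adjusted p = 0.0235 with 20 reads in a library). The summed *Kcnip* level was 3.96 and 3.94 RPKM in the controls and 4.37 and 4.40 RPKM in the mutants. The Kv beta genes *Kcnab2* and *Kcnab3* were not called. *Kcnab2* was at 4.16 and 4.78 against 3.94 and 3.87 RPKM (log2 fold change -0.19, adjusted p = 0.239). *Kcnab3* was at 3.20 and 2.88 against 2.25 and 1.99 RPKM, and passed the adjusted p (0.0391) but not the fold, at -0.50 on the log2 scale. Like *Kcnk5*, it was 1 of 3 members that passed the adjusted p and not the fold, and 12 of the 27 members (19.7% of all genes tested) passed the adjusted p whatever the fold. None of the 4 *Kcne* genes among the members had more than 4 reads in a library. *Kcne1l*, whose symbol ends in a letter and so fell outside the rule for members, was expressed, at 3.17 and 3.66 RPKM in *Prdm13GFP/+* and at 4.17 and 5.21 RPKM in *Prdm13GFP/GFP* (log2 difference 0.44, adjusted p = 0.0652).

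With the added voom fit, 46 members could be tested and 8 were called higher and 8 lower, which is 34.8% of them (7.58% of 12851 genes). All 9 members called by limma were among these 16. A gene can reach 20 reads only in the genotype where it is high, as *Kcnh7* and *Kcnn3* did in *Prdm13GFP/GFP*. The fit also uses the same 4 libraries, so the share and the shared calls are no separate support. The members it added were *Kcnh7*, *Kcna6*, *Hcn2* and *Kcnc1* (higher) and *Kcna2*, *Kcnj3* and *Kcnip2* (lower), and their values were known when they were named. Among the untested members that voom did not call were *Kcnb2*, *Kcnd2*, *Kcnd3*, *Kcnf1*, *Kcnh1* and *Kcna5* among alpha subunits, *Kcnab1*, *Kcnip3* and *Kcnip4* among auxiliary subunits, and *Kcnj9*, *Kcnj11*, *Kcnn2*, *Kcnt1* and *Kcnt2*. *Kcnb2*, which encodes a delayed rectifier subunit, was at 0.163 and 0.298 RPKM in *Prdm13GFP/+* and at 0.324 and 0.537 RPKM in *Prdm13GFP/GFP* (adjusted p = 0.0768).

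**Figure D4:**
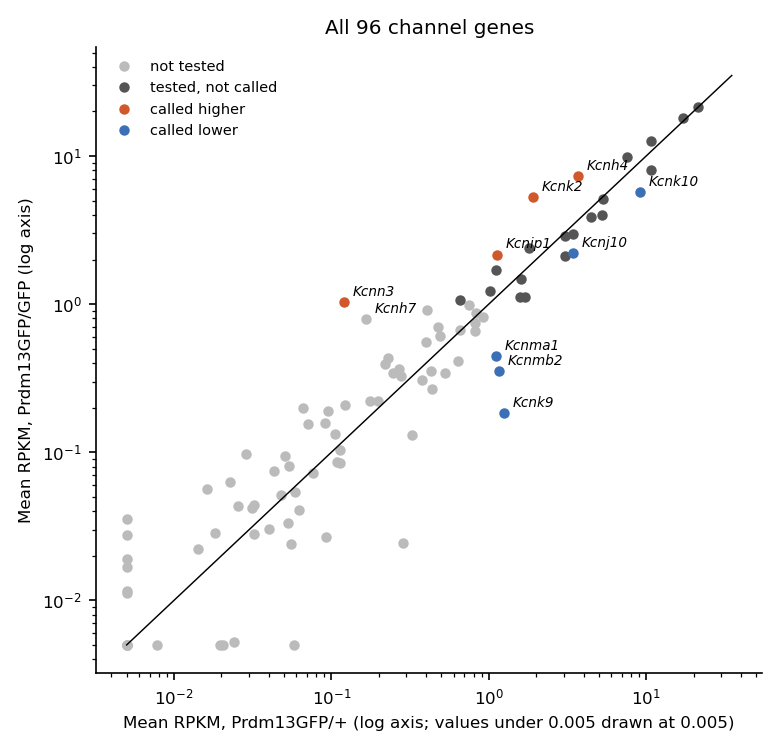
Mean RPKM of each of the 96 channel genes in Prdm13GFP/GFP against Prdm13GFP/+, both on log axes, with values under the axis drawn at its start. Light grey genes were under the filter and not tested, dark grey genes were tested and not called, and red and blue genes were called higher and lower. Kcnn3 (0.121 RPKM in Prdm13GFP/+ and 1.03 in Prdm13GFP/GFP) and Kcnh7 (0.166 and 0.788 RPKM, in that order) lie above the line of equal level. Kcnk9 (1.25 RPKM in Prdm13GFP/+ and 0.183 in Prdm13GFP/GFP) lies below it.

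Partners of these channels outside the family were compared by lists. Of 18 auxiliary and scaffold genes, 11 were tested and 1 was called, where 6.33% of all genes tested were. This was *Abcc8*, which encodes the sulfonylurea receptor that joins the *Kcnj11* product in the ATP-sensitive channel. *Abcc8* was at 0.489 and 0.474 RPKM in *Prdm13GFP/+* and at 1.14 and 1.40 RPKM in *Prdm13GFP/GFP* (log2 fold change 1.23, adjusted p = 0.0247, SE 0.274). It passed the filter only in *Prdm13GFP/GFP*, where it was high. *Lgi1*, a secreted partner of Kv1 complexes chosen after its values were seen, went the other way, from 0.670 and 0.718 RPKM to 0.0722 and 0.0687 RPKM, and was under the filter in both genotypes. The highest gene of that list was *Cntn2*, an adhesion protein of the juxtaparanodal Kv1 complex, at 91.8 and 97.0 against 84.9 and 88.7 RPKM (adjusted p = 0.147).

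None of the 6 sodium-potassium pump genes tested was called by limma, where 2 were higher and 1 lower at an unadjusted p under 0.05, nor by voom. The highest, *Atp1b3*, was at 62.7 and 57.8 against 67.3 and 64.0 RPKM (adjusted p = 0.182). None of the 5 cation-chloride cotransporter genes tested was called by limma either, where 1 was lower at an unadjusted p under 0.05, and voom called 1 lower. *Slc12a5*, which encodes the neuronal potassium-chloride cotransporter KCC2, came closest, at 3.44 and 4.01 against 2.47 and 2.42 RPKM (log2 fold change -0.58, adjusted p = 0.0175, just under 1.5-fold). *Slc12a7*, the highest of that list, was at 25.4 and 25.7 against 26.9 and 29.2 RPKM (adjusted p = 0.156).

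Markers of other cells that a sort could hold were also summed. The summed level of 8 endothelial markers was 4.89 and 6.08 RPKM in *Prdm13GFP/+* and 4.51 and 5.63 RPKM in *Prdm13GFP/GFP*, and that of 10 pericyte and mesenchymal markers 5.78 and 6.30 against 6.21 and 6.01 RPKM, with *Pdgfrb* called higher. The 6 microglia and macrophage markers summed to at most 0.525 RPKM and the 5 motor neuron markers to at most 1.37 RPKM. The 8 markers of neural crest, dorsal root ganglion and glia summed to between 14.9 and 18.3 RPKM in the 4 libraries, with 1 called higher and 1, *Foxd3*, lower. Of the 8 erythroid markers 4 were listed at 0, and the sum was 40.5 and 43.0 against 44.0 and 42.6 RPKM. Among the 13 pan-neuronal markers 4 were called higher (*Stmn2*, *Nefl*, *Nefm* and *Gap43*), 1 lower (*Snap25*) and 8 were not called. Their sum was 2005 and 2065 against 2543 and 2656 RPKM, of which *Tubb3*, not called, made up 1017 and 1062 against 1265 and 1372 RPKM. Over all genes tested, 3.65% were called higher and 2.67% lower. The part of these lists in the changes of channel genes was not tested.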

How the data were processed

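Poly(A) RNA of GFP+ cells sorted from E11.5 neural tubes was sequenced in 2 libraries from 1 RNA pool per genotype. The authors aligned the reads to mm10 with TopHat2 2.1.0, counted them on RefSeq exons with featureCounts, applied TMM normalization in edgeR 3.6.8, and deposited RPKM values. Genotypes and replicates were taken from the labels.

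Here, log2(RPKM + 0.1) was compared with lmFit and eBayes with a trend in limma 3.58.1 (R 4.3.3), as a two-sided test, adjusted by Benjamini-Hochberg over the 12046 genes whose mean reached 1 RPKM in a genotype. With 2 libraries a group, the smallest two-sided exact permutation p is 0.333. On simulated libraries with 200 genes changed 2-fold, 196 were called, with 18 unchanged genes among 11957 tested. The changed genes were drawn from those averaging more than 100 reads, and the spread between libraries was set by hand. The simulation therefore does not cover calls on fewer reads, such as those of *Kcnk9* and *Kcnmb2*.

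Whole reads were solved from the RPKM values for 19196 of 19200 genes above 0, as the smallest whole numbers that give all 4 values, with GENCODE vM21 exon lengths as a guide. A common factor of a gene's reads can be missed. The values imply effective library sizes between 11572778 and 18323396.

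Named are all called members, those with a mean of at least 5 RPKM in either genotype, and the highest tested member of each subfamily; others were chosen after their values were seen. Some genes the rule names are not reported here. Of the partner lists, called genes and the highest member were named. Members and lists were chosen with earlier results of these data known. Alternatives were pseudocounts, filters, scalings, call rules, voom, a replicate block and leaving out each library.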

Additional observations from a re-analysis of the deposited data

How the results depend on the processing

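The main comparison called 4 channel genes higher and 5 lower. Without the filter on RPKM these counts were 0 and 1 over 96 members, and the median log2 fold change of the members was 0.041 in place of -0.085. Limma without the filter called *Kcnk10*, while 11 members were higher and 13 lower at an unadjusted p under 0.05. With a pseudocount of 1 the lower calls were 3, and with voom on genes with 20 reads in a library, added after seeing the data, the calls were 8 and 8. Leaving out 1 library gave 2 to 3 higher and 1 to 3 lower calls and a median from -0.12 to 0.027. The lone library of a genotype is then assumed to vary like the other genotype's. Changes of sign among named genes were in *Kcnd1* (-0.025 to 0.51 with a library left out, -0.025 without heterozygous replicate 2 and -0.0013 without homozygous replicate 2) and *Kcnn1* (-0.11 to 0.086 with a library left out, 0.045 without heterozygous replicate 2 and 0.086 without homozygous replicate 1), none of them called. Of the values of named genes under alternatives, 250 kept direction and side of the threshold, 28 kept direction and lost the call, 1 gained it and 4 changed sign. Named genes that were not called had no call to lose, so all 28 losses fell on called genes. The alternative call rules reuse the main fit, so direction could not change there. With the replicate number as a block the calls were 4 and 5. The correlation of deviations between same-numbered libraries was 0.0475 over 12046 genes, so the numbers do not show a pairing. The causes of these changes were not tested, beyond the number of genes and libraries that enter each fit. Depth limits the members under 20 reads in every library, which entered neither fit.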
